A study of Homo sapiens with 4 samples.

Results

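The cytosolic chaperonin CCT, also called TRiC, and its partner prefoldin are described here through 10 genes of 23444 entries in the deposited tables. They were chosen by symbol: the 7 CCT subunit genes TCP1, CCT2, CCT3, CCT4, CCT5, CCT7 and CCT8, and the 3 prefoldin subunit genes PFDN2, PFDN4 and PFDN6. RNA was sequenced from U87-MG, an established human glioblastoma line, as 2 shMAGED2 libraries (genotype label: MAGED2 knocked down) and 2 shCON libraries (negative control hairpin). The design text calls the knockdown stable, whereas the protocol in the labels speaks of GIPZ hairpins for another gene, ZDHHC15, given transiently for 36 h, and which applies was not resolved. The labels name no clone or separate culture, so a p-value speaks for the spread among these 4 libraries alone, which may be technical.

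CCT is a large double-ring complex in which different but related subunits each take a fixed place and hydrolyse ATP to fold proteins enclosed in the ring. Actins and tubulins depend on it, as do several proteins built of WD40 repeats. Prefoldin is a smaller jellyfish-shaped complex of related subunits that holds unfolded actin and tubulin chains and hands them to CCT.

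The libraries held 31160205 and 36234336 counts in shMAGED2 and 34235565 and 28673774 in shCON. MAGED2 had 526 and 795 counts in shMAGED2 against 6090 and 5225 in shCON, a log2 change of −3.16 (SE 0.13; edgeR adjusted p = 0.000654). No count of ZDHHC15 was found in any library, where 3 counts would equal 0.0817 to 0.102 CPM. CPM, counts per library on a common scale, were computed with TMM-normalised library sizes. Mitochondrially encoded genes took 10.1% and 4.87% of the counts in shMAGED2 and 3.92% and 3.90% in shCON, so shMAGED2 replicate 1 stood apart. VIM (7574 to 8799 CPM) and CD44 (882.6 to 1244 CPM) were high in every library, while the glial markers GFAP, S100B, OLIG2 and SOX2 reached at most 5.76 CPM. Of these 7 glioma and mesenchymal markers NES rose (log2 change 1.88) and OLIG2 fell (−1.45). The 6 markers of blood, epithelial, endothelial, neuronal and oligodendrocyte cells summed to 4.55 and 3.08 CPM in shMAGED2 and 2.49 and 2.28 CPM in shCON.

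The sequence before the start is shown for the 4 CCT genes that rose together in the test below. Each line is the longest stretch of the 250 bases before the RefSeq start (GRCh38.p14) that lies outside every exon of GENCODE 29, written 5′ to 3′ on the gene's strand; where RefSeq lists more than 1 start, the one farthest upstream was used. The stretches are chr6:159789750-159789811 on the minus strand for TCP1, chr12:69585209-69585333 on the plus strand for CCT2, chr1:156338466-156338502 on the minus strand for CCT3 and chr2:73234058-73234235 on the plus strand for CCT7. The CCT3 and CCT7 stretches lie within introns of longer annotated transcripts of the same genes. Capitals mark a match to the letters CCAAT on the other strand, read here as ATTGG, which among these stretches occurs in that of TCP1.
TCP1: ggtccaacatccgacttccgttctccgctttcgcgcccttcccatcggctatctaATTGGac
CCT2: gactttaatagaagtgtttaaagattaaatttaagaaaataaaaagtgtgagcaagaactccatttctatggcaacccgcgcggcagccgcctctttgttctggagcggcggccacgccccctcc
CCT3: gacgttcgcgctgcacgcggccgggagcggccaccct
CCT7: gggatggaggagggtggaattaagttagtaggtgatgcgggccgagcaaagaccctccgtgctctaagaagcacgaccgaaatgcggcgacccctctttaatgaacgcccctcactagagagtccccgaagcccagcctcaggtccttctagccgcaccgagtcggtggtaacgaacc
The 62 bases shown for TCP1 separate its first annotated exon from that of MRPL18, a mitochondrial ribosomal protein gene read in the opposite direction whose start lies 63 bases away. Whole 250-base windows were matched for 9 of the 10 genes (not PFDN2). In them CCAAT occurred in 5 (TCP1, CCT2, CCT3, CCT8 and PFDN4), against 32.0% of all 35116 promoters in the same table. GGGCGG, the GC box, occurred in 4 (TCP1, CCT2, CCT3 and CCT8), against 42.6%. GAANNTTC, inverted repeats of the unit that makes up heat shock elements, occurred in TCP1 and PFDN6, against 5.78%, and the E-box CACGTG in none of the 9, against 6.34%. Both strands were searched, and no match overlapped one to another motif. The windows of CCT4, CCT5 and CCT7 held none of these motifs. These matches describe letters and were tied to no factor.

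In the comparison of MAGED2-depleted with control cells, 4 of the 10 genes rose and 0 fell, and all 4 encode CCT subunits: CCT7, CCT2, CCT3 and TCP1, at 1.33 to 1.45 times the shCON level. CCT8 (1.27 times) and CCT4 (1.09 times) did not pass the test, CCT5 had a fitted ratio of 0.998, and none of the 3 prefoldin genes passed. The test was edgeR's quasi-likelihood test over 15293 genes with Benjamini-Hochberg adjustment and a threshold of 0.05. Of all genes tested 12.3% rose and 11.6% fell, 23.9% in all. At an unadjusted p under 0.05 there were 5 of the 10, against 38% of all genes tested. In bulk RNA, fewer cells of a kind and less RNA per cell cannot be told apart. The median log2 change was 0.41 over the 7 CCT genes, 0.07 over the 3 prefoldin genes and 0.00284 over all genes tested. All 10 passed the filter on low counts.

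CCT7, the eta subunit (ENSG00000135624, plus strand of chromosome 2, 73233420 to 73253021 in hg38), had 303.4 and 342.7 CPM in shMAGED2 and 222.0 and 222.4 CPM in shCON. Its log2 change was 0.54 (SE 0.10; edgeR adjusted p = 0.0145), the highest among the 10. CCT2, the beta subunit (ENSG00000166226, plus strand of chromosome 12, 69585334 to 69601570), had 247.5 and 275.5 CPM in shMAGED2 and 186.6 and 191.6 CPM in shCON. For both genes, and for CCT3, TCP1 and CCT8, the lower shMAGED2 library stood above the higher shCON library by more than the shCON pair differed. The log2 change of CCT2 was 0.47 (SE 0.10; edgeR adjusted p = 0.0208).

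CCT3, the gamma subunit (ENSG00000163468, minus strand of chromosome 1, 156308968 to 156367873), had 308.2 and 367.1 CPM in shMAGED2 and 248.9 and 258.1 CPM in shCON, a log2 change of 0.41 (SE 0.11; edgeR adjusted p = 0.0455). TCP1, the alpha subunit for which the complex was named (ENSG00000120438, minus strand of chromosome 6, 159778498 to 159789749), had 344.7 and 395.9 CPM in shMAGED2 and 279.6 and 277.3 CPM in shCON, a log2 change of 0.41 (SE 0.10; edgeR adjusted p = 0.0353). Again the groups did not overlap, and shMAGED2 replicate 2 was the highest library. TCP1 shares 397 exonic bases with ACAT2, a thiolase gene on the opposite strand. ACAT2 fell, to 11.8 and 11.4 CPM in shMAGED2 against 23.3 and 18.2 CPM in shCON, so even its whole count was small beside that of TCP1. The ACAT2 call was lost without shCON replicate 1 (edgeR adjusted p = 0.209). How the counting treated strand is not known here, so reads from such pairs cannot be told apart.

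The calls on these 4 genes depended on the library left out and on the table, and the calls over the whole table moved with them. The shMAGED2 pair differed far more than the shCON pair (chi-square of the counts per degree of freedom 79.6 and 7.0). A fit with 1 library in a group takes its spread from the other pair alone, and its calls reflect that pair. The changes themselves moved little without shCON replicate 1 or 2. They were 0.54 and 0.54 for CCT7, 0.41 and 0.41 for TCP1, 0.45 and 0.49 for CCT2, and 0.385 and 0.44 for CCT3. Without shMAGED2 replicate 1 or 2 the changes of these genes moved more. They were then 0.63 and 0.45 for CCT7, 0.51 and 0.31 for TCP1, 0.54 and 0.39 for CCT2, and 0.53 and 0.28 for CCT3. Without shCON replicate 1 or 2 none of the 10 genes passed in edgeR (1 and 2 at an unadjusted p under 0.05), where 3.59% and 4.12% of all genes tested rose. Without shMAGED2 replicate 1 there were 6 of the 10 that rose, against 21.1% of all genes. Without shMAGED2 replicate 2 there were 5 that rose and 1 that fell, against 23.5% of all genes in each direction. In limma on log2(FPKM + 1) none passed (2 at an unadjusted p under 0.05), with log2 changes of 0.34 to 0.48 for the 4.

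**Figure D1:**
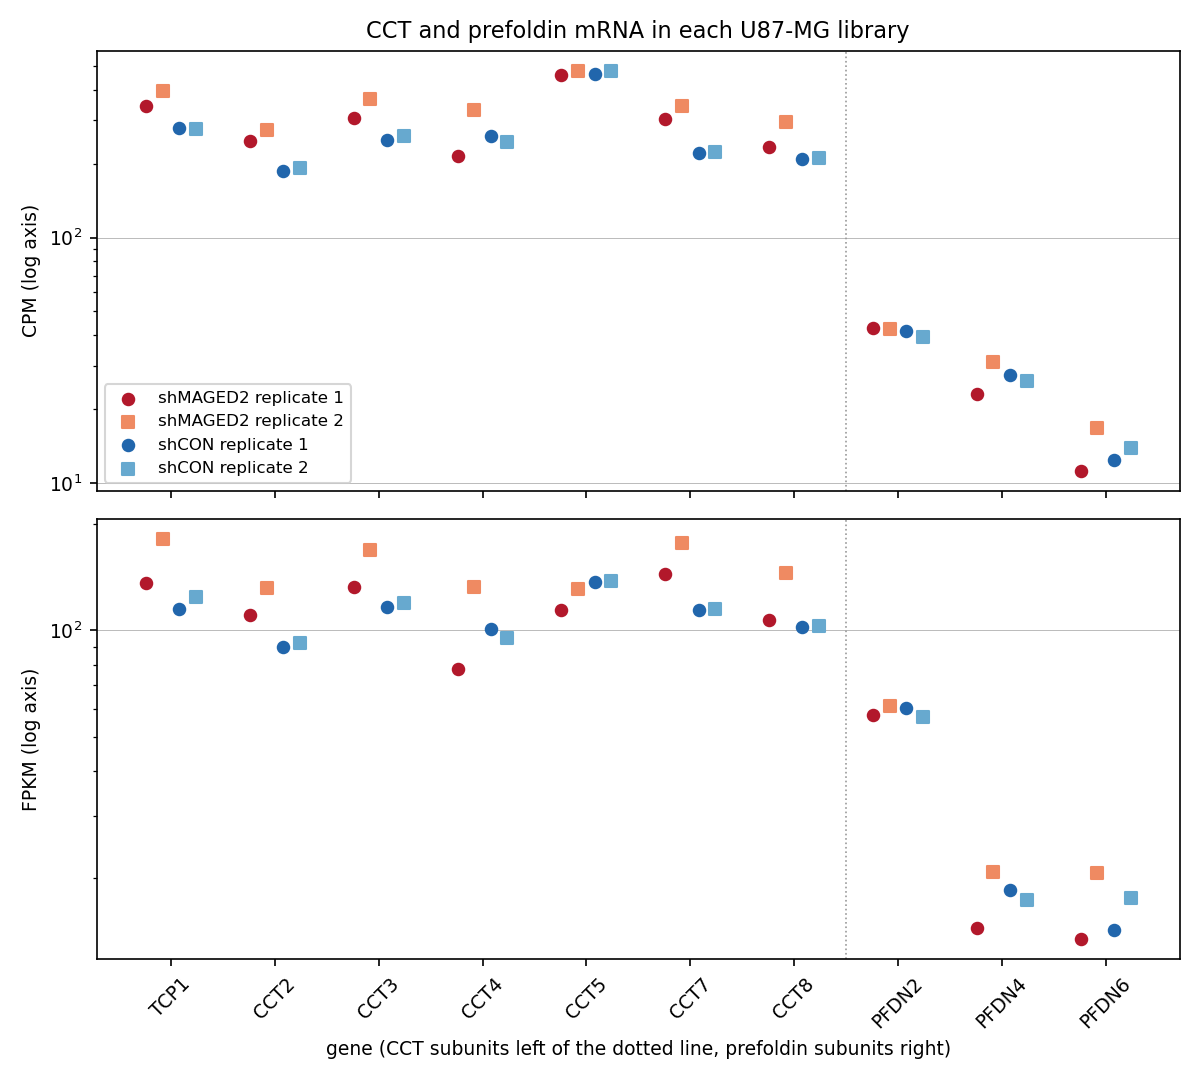
Level of each gene in each library on log axes, as CPM (above) and as the authors' FPKM (below), with shMAGED2 in red and orange and shCON in blue. For TCP1, CCT2, CCT3, CCT7 and CCT8 both shMAGED2 points lie above both shCON points in both units, while the CCT5 points sit between 460.6 and 478.1 CPM.

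CCT8, the theta subunit (ENSG00000156261, minus strand of chromosome 21, 29055805 to 29073797), had 234.5 and 296.2 CPM in shMAGED2 and 208.6 and 210.3 CPM in shCON. The groups did not overlap, but the shMAGED2 pair differed by more than its lower library exceeded shCON, which also held for CCT3. The log2 change of CCT8 was 0.34 (SE 0.13), with an edgeR adjusted p of 0.109. Without shMAGED2 replicate 1 or 2 the change of CCT8 was 0.50 and 0.16. CCT4, the delta subunit (ENSG00000115484, minus strand of chromosome 2, 61868089 to 61888804), had 215.5 and 331.3 CPM in shMAGED2 and 259.4 and 244.1 CPM in shCON. Here the 2 shMAGED2 libraries lay on opposite sides of shCON, and the log2 change of 0.12 had a 95% interval of −0.37 to 0.61. Fitted without shMAGED2 replicate 1, CCT4 rose by 0.40; fitted without shMAGED2 replicate 2, it fell by 0.23. CCT4 shares 81 exonic bases with COMMD1 on the opposite strand, which had 5.60 to 7.50 CPM in all libraries.

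CCT5, the epsilon subunit (ENSG00000150753, plus strand of chromosome 5, 10249921 to 10266412), had 460.6 and 478.1 CPM in shMAGED2 and 462.8 and 477.9 CPM in shCON. Its log2 change of −0.0031 (SE 0.09) had a 95% interval of −0.21 to 0.21, which excludes the 0.41 to 0.54 fitted for the 4 genes that rose. The intervals of CCT3 (0.14 to 0.69) and TCP1 (0.16 to 0.66) nevertheless overlap it. Those of CCT2 (0.23 to 0.70) and CCT7 (0.30 to 0.78) do not, and the difference between genes was not itself tested. The deposited FPKM values, fragments scaled to gene length and depth, ordered CCT5 otherwise. They were 114.5 and 130.7 FPKM in shMAGED2 and 136.8 and 137.5 FPKM in shCON, both lower than either control, and limma on log2(FPKM + 1) gave a change of −0.16 (adjusted p = 0.39).

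The gap between the 2 units can be followed through the length that the FPKM imply, which is the CPM on the unnormalised library total divided by FPKM. For CCT5 it was 3.80 and 3.71 kilobases in shMAGED2 and 3.45 and 3.56 kilobases in shCON. For CCT7 it stayed at 1.98 to 1.99 kilobases and for CCT2 at 2.12 to 2.13 kilobases. CCT5 was thus given a longer length in both knockdown libraries, while most CCT genes had nearly the same length in all 4. TCP1 also varied, at 2.40 and 2.22 kilobases in shMAGED2 and 2.48 and 2.28 kilobases in shCON, with the groups overlapping. In GENCODE 29 CCT5 has 5839 exonic bases, of which 1757 are shared with a gene on the opposite strand that has no entry in the tables. Whether the length moved with the use of isoforms was not tested.

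**Figure D2:**
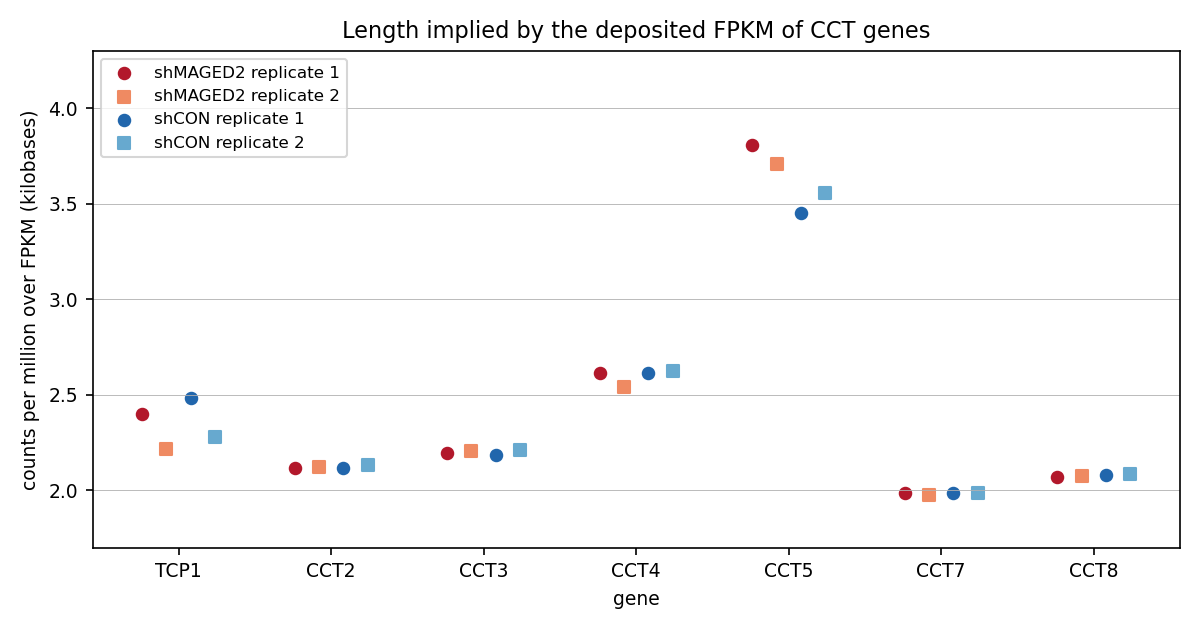
Kilobases implied by the deposited FPKM for each CCT gene in each library, with shMAGED2 left of shCON. The CCT5 points are at 3.80 and 3.71 in shMAGED2, above 3.45 and 3.56 in shCON, while CCT2, CCT3, CCT7 and CCT8 each form a level row.

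On the per-length FPKM scale the 7 CCT mRNAs were of one order of size, and the prefoldin mRNAs were lower. In shCON the levels ran from CCT5 (137.1 ± 0.54 FPKM) through TCP1 (119.6 ± 6.69), CCT3 (117.8 ± 2.26), CCT7 (114.3 ± 0.38), CCT8 (102.7 ± 0.61) and CCT4 (98.1 ± 4.24) to CCT2 (90.9 ± 1.51; SD, n = 2 throughout). TCP1 and CCT3 overlapped in shCON, and the other neighbours in this order did not. In shMAGED2 CCT7 (160.2 ± 22.2 FPKM), TCP1 (158.3 ± 31.9) and CCT3 (150.6 ± 25.4) were highest and overlapped each other, followed by CCT8 (125.9 ± 26.8), CCT5 (122.6 ± 11.5), CCT2 (121.2 ± 14.9) and CCT4 (105.1 ± 38.3), which also overlapped. CCT5 thus held the first place in both shCON libraries, and the fourth and the last place among CCT genes in shMAGED2 replicates 1 and 2. In replicate 2 its 130.7 FPKM lay close to 131.7 for CCT2 and 132.2 for CCT4. Its share of the FPKM summed over the 7 genes was 13.9% and 12.3% in shMAGED2 and 17.6% and 17.5% in shCON. These places and shares depend on the length behind the FPKM, which was longer for CCT5 in shMAGED2. In CPM, which are not scaled to length, CCT5 was the highest CCT gene in every library (460.6 to 478.1).

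Summed over the 7 CCT genes, the level was 822.9 and 1065 FPKM in shMAGED2 and 775.1 and 786.0 FPKM in shCON. On this scale the lower shMAGED2 sum was close to the control sums, and the higher one stood well above them. In CPM the sums were 2114 and 2487 in shMAGED2 and 1868 and 1882 in shCON. There both shMAGED2 sums lay above both control sums, by more than the controls differed. The 2 shMAGED2 libraries differed in one direction for nearly the whole group: 9 of the 10 genes had more CPM in replicate 2 than in replicate 1, with a median ratio of 1.17 and a highest ratio of 1.54 for CCT4. Over all genes tested, 49.5% were higher in replicate 2. In shCON the median ratio of replicate 2 to replicate 1 was 1.01 over the 10 genes. Replicate 1 of shMAGED2 is the library with the high mitochondrial share, whose part in these gaps was not tested. With mitochondrially encoded genes removed the same count of 4 genes rose, but that fit compares the groups and does not bear on these gaps.

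**Figure D3:**
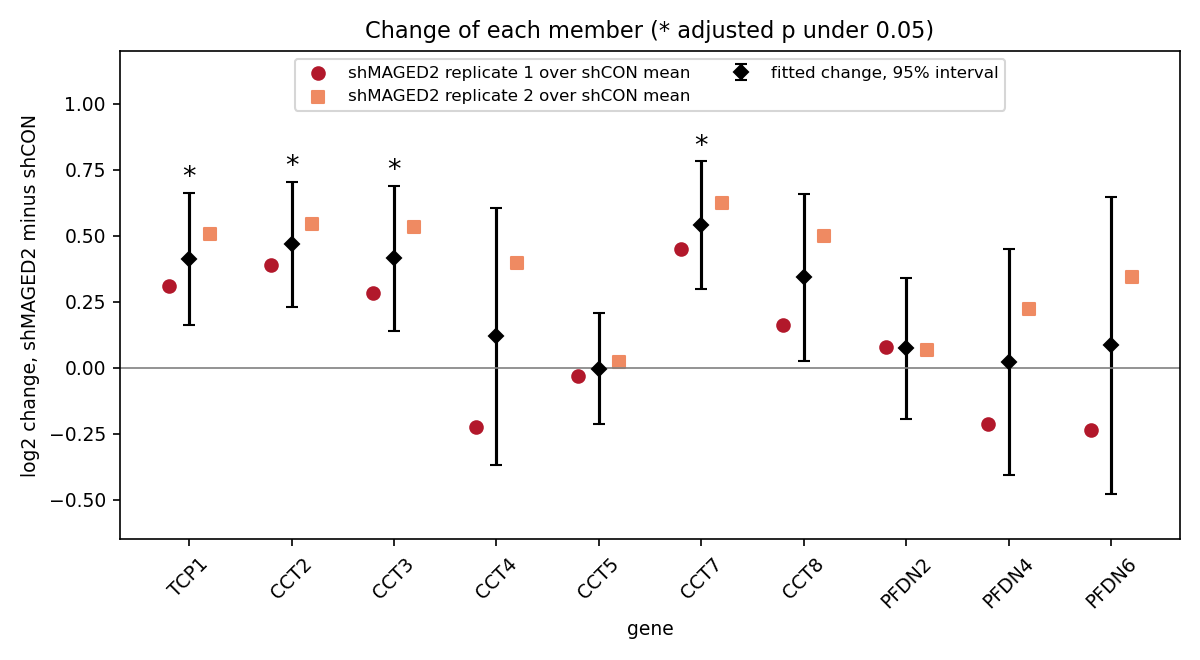
Fitted log2 change of each gene, shMAGED2 minus shCON, with its 95% interval (diamonds), and each shMAGED2 library over the shCON mean (circles and squares). Both shMAGED2 libraries are above 0 for TCP1, CCT2, CCT3, CCT7, CCT8 and, narrowly, PFDN2, and lie on opposite sides of 0 for CCT4, CCT5, PFDN4 and PFDN6.

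Of the prefoldin genes, PFDN2 (ENSG00000143256, minus strand of chromosome 1, 161100556 to 161118111), which encodes a beta-type subunit, had 42.7 and 42.4 CPM in shMAGED2 and 41.6 and 39.4 CPM in shCON. Its log2 change was 0.07 with a 95% interval of −0.19 to 0.34. PFDN4 (ENSG00000101132, plus strand of chromosome 20, 54207847 to 54228052), another beta-type subunit, had 23.1 and 31.3 CPM in shMAGED2 and 27.7 and 25.9 CPM in shCON. PFDN6 (ENSG00000204220, plus strand of chromosome 6, 33289302 to 33298401), the third beta-type subunit here, had 11.2 and 16.7 CPM in shMAGED2 and 12.5 and 13.9 CPM in shCON. For PFDN4 and PFDN6 the 2 shMAGED2 libraries enclosed both shCON libraries, with log2 changes of 0.02 (95% interval −0.41 to 0.45) and 0.08 (−0.48 to 0.65). None of these prefoldin genes passed at an unadjusted p under 0.05 in edgeR, and the interval of PFDN6 still includes the 0.54 fitted for CCT7. PFDN6 shares 724 exonic bases with RGL2 and 226 with WDR46, both on the opposite strand, at 22.0 to 43.0 and 24.2 to 32.5 CPM. RGL2 did not pass in edgeR with all 4 libraries (log2 change −0.60, SE 0.19; adjusted p = 0.0709). It passed in DESeq2 (adjusted p = 0.0259) and in edgeR with no count filter (adjusted p = 0.0372). Without shMAGED2 replicate 1 or 2 its change was −0.45 and −0.78.

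In shCON PFDN2 had 58.7 ± 2.27 FPKM, PFDN4 18.0 ± 0.83 and PFDN6 15.9 ± 2.29 (SD, n = 2). PFDN2 was lower than each of the 7 CCT genes in all 4 libraries, and PFDN4 and PFDN6 overlapped.

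Counting only non-overlap, both shMAGED2 libraries exceeded both shCON libraries in CPM for 6 of the 10 genes and lay below them for 0, where 33% of all tested genes were higher and 33% lower in this sense. The sixth was PFDN2, whose groups overlapped in FPKM.

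The genes of both complexes that are not among the 10 moved in both directions. CCT6A, the zeta subunit, had 322.7 and 359.2 CPM in shMAGED2 and 283.2 and 277.9 CPM in shCON, with a log2 change of 0.28 (SE 0.10) and an edgeR adjusted p of 0.0827. CCT6B, a second zeta form known mainly from testis, was scarce and fell, to 2.38 and 2.26 CPM in shMAGED2 against 5.47 and 4.09 CPM in shCON (edgeR adjusted p = 0.0457). PFDN1, a beta-type prefoldin subunit, rose to 74.8 and 71.7 CPM in shMAGED2 against 51.3 and 55.5 CPM in shCON (edgeR adjusted p = 0.0284). The alpha-type subunits VBP1 and PFDN5 did not pass and pointed in opposite directions, with log2 changes of 0.39 (SE 0.17) and −0.45 (SE 0.21). Both depended on 1 library. VBP1 had 0.60 without shMAGED2 replicate 1 and 0.15 without replicate 2. PFDN5 had −0.82 without shMAGED2 replicate 2 and −0.17 without replicate 1. The change of CCT6A was 0.36 and 0.20 without shMAGED2 replicate 1 or 2. Without shCON replicate 1 or 2 the calls on PFDN1 (edgeR adjusted p = 0.332 and 0.201) and CCT6B (0.336 and 0.114) were lost.

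Genes next to the 10 were read for the same contrast. PRADC1, whose start lies 182 bases from that of CCT7, rose (log2 change 0.93, SE 0.21; edgeR adjusted p = 0.0267, and 0.065 and 0.182 without shCON replicate 1 or 2). MRPL18 beside TCP1 had a change of 0.29 (SE 0.10), TSACC, which overlaps CCT3, 1.59 (SE 0.48) at 0.487 to 1.80 CPM, FAM173B beside CCT5 −0.10 (SE 0.19), and NIT1 beside PFDN2 −0.49 (SE 0.21), and none of these passed with all 4 libraries in edgeR. TSACC did pass in the 3 limma fits on FPKM (adjusted p = 0.0165, 0.0189 and 0.0455). MRPL18 had 0.30 and 0.27 without shMAGED2 replicate 1 or 2. NIT1 had −0.81 without shMAGED2 replicate 2 and −0.22 without replicate 1. The change of FAM173B was 0.03 without shMAGED2 replicate 1. GENCODE 29 lists 9 pseudogenes named after these genes, of which 0 have an entry in the tables, and how reads that match both were assigned is not given.

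Genes for cofactors and assembly partners of CCT were read beside the 12.3% of all genes tested that rose. Of 4 cofactor genes 1 rose and 0 fell. The one that rose was PDCD5, whose product binds CCT (log2 change 0.47, SE 0.12), while PDCL (0.13, SE 0.14) and TXNDC9 (0.08, SE 0.11), both phosducin-like or related, did not pass. Of 7 genes of the prefoldin-like and R2TP assembly machinery 2 rose and 0 fell. These were the paired ATPases RUVBL2 (0.87, SE 0.14) and RUVBL1 (0.54, SE 0.10), and RPAP3, their adaptor, did not pass (0.18, SE 0.14). Of 6 genes for tubulin folding cofactors, which act after CCT, none passed in edgeR and 1 had an unadjusted p under 0.05. That gene was TBCD (0.35, SE 0.13), and TBCB (0.20, SE 0.11) and ARL2 (0.14, SE 0.11) followed in p. Without shCON replicate 1 or 2 the calls on PDCD5 (edgeR adjusted p = 0.199 and 0.325) and RUVBL1 (0.139 and 0.235) were lost, and that on RUVBL2 without shCON replicate 2 (0.074). TBCD had 0.49 and 0.18 without shMAGED2 replicate 1 or 2, and RPAP3 had 0.29 without shMAGED2 replicate 2.

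Among genes whose products CCT folds, the tubulins had the highest median change. Of 11 tubulin genes tested of 12 listed, 10 rose and 0 fell, with a median log2 change of 1.15. Over all genes tested 12.3% rose and 11.6% fell. TUBB6, a beta tubulin, had 712.4 and 604.2 CPM in shMAGED2 and 275.1 and 274.6 CPM in shCON, a change of 1.26 (SE 0.11; edgeR adjusted p = 0.00153). TUBA1B, the most abundant alpha tubulin here in CPM, had 2556 and 1844 CPM in shMAGED2 and 707.8 and 661.5 CPM in shCON. TUBA1A rose by 0.91 (SE 0.09). The gene that did not pass, TUBB2B, was scarce, with 0 and 0.953 CPM in shMAGED2 and 4.24 and 2.45 CPM in shCON. Summed over the list, the tubulin genes had 6897 and 5721 CPM in shMAGED2 and 2709 and 2638 CPM in shCON, so the sum was higher in shMAGED2 replicate 1 than in replicate 2, although TUBB3 (223.5 and 261.6 CPM in shMAGED2) and TUBB4B (464.7 and 572.3 CPM in shMAGED2) had the other order. Tubulin and actin genes have near-identical copies, which makes the split of reads among them uncertain.

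Of 6 actin and actin-related genes 2 rose and 0 fell: ACTB, with 4611 and 3236 CPM in shMAGED2 and 2123 and 2068 CPM in shCON, and the dynactin subunit ACTR1A (0.48, SE 0.09). ACTR3, of the Arp2/3 complex, did not pass (0.20, SE 0.08). Of 9 WD40-repeat genes 3 rose and 0 fell. Both lists are short and stand beside 12.3% rising and 11.6% falling over all genes tested. CDC20, a mitotic activator of the anaphase-promoting complex, had 105.9 and 128.6 CPM in shMAGED2 and 36.0 and 34.0 CPM in shCON, and FZR1, its relative (0.49, SE 0.11), and the G protein subunit GNB4 (0.42, SE 0.10) rose as well. The median of the 9 was 0.29. Without shCON replicate 1 or 2 the calls on ACTB, ACTR1A, FZR1 and GNB4 were lost. The change of ACTR3 was 0.19 and 0.20 without shMAGED2 replicate 1 or 2.

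**Figure D4:**
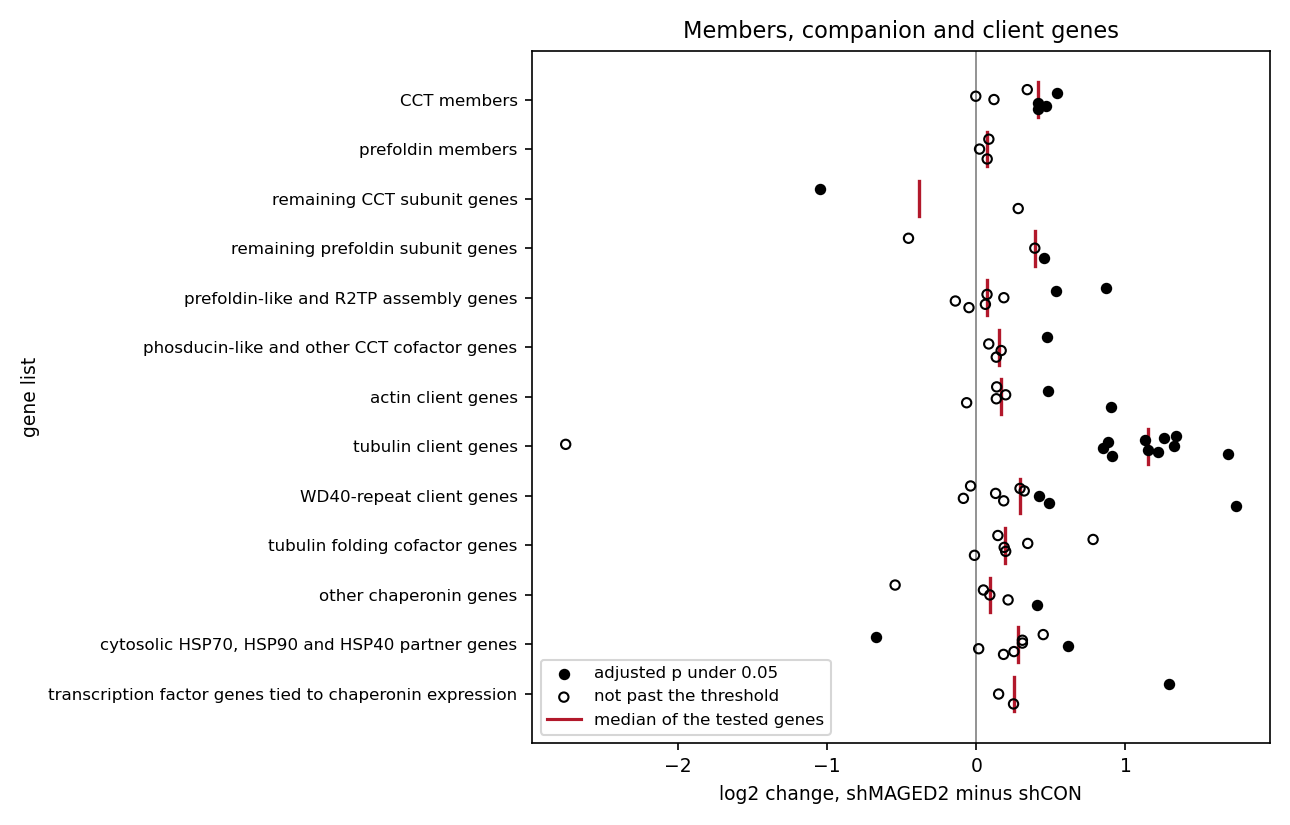
Log2 change, shMAGED2 minus shCON, of every tested gene in each list, filled where the edgeR adjusted p was under 0.05, with red bars at the list medians. The tubulin median of 1.15 stands to the right of the CCT median of 0.41, and the prefoldin median of 0.07 is near 0.

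Other chaperones were read for comparison, beside the 12.3% of all genes tested that rose and the 11.6% that fell. Of 5 genes for other chaperonins 1 rose: HSPD1, the mitochondrial chaperonin Hsp60, with 989.9 and 1001 CPM in shMAGED2 and 750.8 and 749.4 CPM in shCON (log2 change 0.41, SE 0.08). Its co-chaperonin HSPE1 had 47.4 and 92.4 CPM in shMAGED2 around 59.2 and 61.5 CPM in shCON, and BBS12 did not pass (−0.54, SE 0.22). Of 8 cytosolic HSP70, HSP90 and HSP40 genes 1 rose, HSP90AA1 (0.62, SE 0.09), and 1 fell, the heat-inducible co-chaperone DNAJB1 (−0.67, SE 0.10). At an unadjusted p under 0.05 in edgeR there were 6 of the 8, DNAJB1 among them, against 38% of all genes tested. The median log2 change of the 8 was 0.28. HSP90AB1 missed the threshold (0.31, SE 0.09, edgeR adjusted p = 0.0507) and passed it in DESeq2 (adjusted p = 0.0208) and limma-voom (adjusted p = 0.0335). It also passed in edgeR with no count filter (adjusted p = 0.0408), no robust estimation (0.0331) or no mitochondrially encoded genes (0.0358). Its change was 0.33 and 0.29 without shMAGED2 replicate 1 or 2. Without shCON replicate 1 or 2 the calls on HSPD1 (edgeR adjusted p = 0.337 and 0.342), HSP90AA1 (0.169 and 0.171) and DNAJB1 (0.0907 and 0.0685) were lost. HSPE1 had 0.62 without shMAGED2 replicate 1 and −0.35 without replicate 2, and BBS12 had −0.78 without shMAGED2 replicate 2.

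Among transcription factor genes that have been tied to chaperonin expression, MYC rose to 162.5 and 109.6 CPM in shMAGED2 against 55.1 and 56.1 CPM in shCON (log2 change 1.29, SE 0.19; edgeR adjusted p = 0.0076). HSF1 (0.25, SE 0.14) and HSF2 (0.15, SE 0.13), the heat shock factors, did not pass. Without shMAGED2 replicate 2 the changes were 0.41 for HSF1 and 0.28 for HSF2.

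The 5 other genes whose log2 CPM deviations over the 4 libraries lay nearest to the median deviations of the 10 genes were SRP9, ANAPC5, ABCB8, CNOT6 and DEGS1, out of 4764 whose mean reached 50 CPM. Their Euclidean distances were 0.0412 to 0.0557 log2 units, and this likeness rests on 4 libraries only. The 10 genes themselves lay 0.0572 (CCT8) to 0.349 (CCT5) from that median, each farther than all 5. The likeness is thus to the median and not to each of the 10 genes.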

How the data were processed

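RNA of 4 U87-MG libraries (2 shMAGED2, 2 shCON, grouped by title) was made into libraries with a NEBNext Ultra kit, as the labels' protocols state. The deposited counts are whole numbers for each gene, unscaled, and the deposited FPKM table holds FPKM by the authors, whose gene lengths are not given. HISAT2, StringTie and SAMtools on hg38 are named in the submitters' processing notes, without roles or versions; for annotation, strand setting and handling of multiply matching reads, the sources used here give nothing.

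Counts were fitted over all 4 libraries with edgeR 4.0.16 in R 4.3.3 (filterByExpr, TMM, robust quasi-likelihood, group only; 2 residual and a median of 4.01 prior degrees of freedom; biological coefficient of variation 0.167), two-sided, with Benjamini-Hochberg adjustment over 15293 genes. Standard errors were derived from the F statistic, and 95% intervals from 6.01 degrees of freedom. Limits from 3 counts and the totals of 28673774 to 36234336 cover counting error only. Alternatives used DESeq2 1.42.0, limma 3.58.1 and other scalings, filters, pseudocounts (1 and 0.1), a block on replicate number, and fits that omit each library; removal of mitochondrially encoded genes was added after seeing the data. Tests were tried on simulated data. Coordinates are 1-based from GENCODE 29 on hg38, promoters from RefSeq.

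The members and lists were chosen with earlier results of these data known. Named are all 10 members, the 2 hairpin targets, the 3 genes of each companion list with the smallest p, genes that overlap a member or start within 1000 bases, and the 5 nearest profiles among genes of at least 50 CPM; lists of up to 3 genes are named whole. Markers were named by list, and TUBB2B, TUBB3 and TUBB4B after their values were seen. No set test was run.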

Additional observations from a re-analysis of the deposited data

How the results depend on the processing

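With TMM in edgeR 4 of the 10 genes rose; 4 also rose with DESeq2 size factors, DESeq2, limma-voom, no count filter, a 5 CPM filter, no robust estimation and mitochondrially encoded genes removed, against 3 with upper-quartile factors, 1 with library size alone and 0 in the 3 FPKM fits. The replicate block gave 2 (CCT3 0.41, adjusted p = 0.0541, and TCP1 0.41, adjusted p = 0.055, were lost); same-numbered libraries did not deviate together (r = 0.0169 across 14810 genes), so the numbers are not taken as pairs. Log2 changes that lost their call were 0.37 for CCT3 with upper-quartile factors; 0.35 for TCP1, 0.41 for CCT2 and 0.36 for CCT3 with library size alone; and in limma on FPKM with pseudocount 1 and with 0.1, 0.39 and 0.39 for TCP1, 0.41 and 0.41 for CCT2, 0.34 and 0.34 for CCT3 and 0.48 and 0.48 for CCT7 (the same values with pseudocount 1 unfiltered). The cause was not tested. Signs turned, all far from the threshold, for PFDN4 (−0.023 upper-quartile, −0.031 library size alone, −0.047 on FPKM with pseudocount 1, filtered or not, and −0.051 with 0.1), WDR46 (−0.035 upper-quartile, −0.043 library size alone, −0.057 and −0.063 in those FPKM fits, −0.010 at 5 CPM, −0.0054 with the block) and CCT5 (0.0021 without mitochondrial genes). The genes rising and falling over the whole table were 1874 and 1775, against 1236 rising on log2(FPKM + 0.1), and 642 and 717 unfiltered on FPKM.

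With one library left out, 0 to 6 of the 10 genes rose and 0 to 1 fell, and 567 to 3725 rose and 533 to 3722 fell over all genes. Changes ran 0.31 to 0.51 for TCP1, 0.39 to 0.54 for CCT2, 0.28 to 0.53 for CCT3, −0.23 to 0.40 for CCT4, −0.032 to 0.024 for CCT5, 0.45 to 0.63 for CCT7, 0.16 to 0.50 for CCT8, −0.21 to 0.22 for PFDN4, −0.24 to 0.34 for PFDN6, −0.35 to 0.62 for HSPE1, −0.32 to 0.017 for COMMD1, −0.23 to 0.027 for FAM173B and −0.22 to 0.21 for WDR46. A lone library is assumed there to vary like the other group, although the shMAGED2 pair differed far more than the shCON pair (chi-square per degree of freedom 79.6 and 7.0).

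Companion counts also moved. Rising WD40-repeat genes were 1 with library size alone and in the FPKM fits. Rising HSP70, HSP90 and HSP40 genes were 3 with DESeq2 and with no count filter, 2 with limma-voom, no robust estimation and mitochondrial genes removed, and 0 on unfiltered FPKM, where 0 fell. In the FPKM fits 0 remaining prefoldin and, like the block, 0 other chaperonin genes rose. There 1 tubulin gene fell in the filtered fit with pseudocount 1. CCT6B was lost (0 falling) with a 5 CPM filter, the block and unfiltered FPKM. Unfiltered FPKM also gave 0 rising assembly, cofactor and transcription factor genes and 1 actin gene. With one library left out, the counts rising and falling were 0 to 1 and 0 to 1 for remaining CCT genes, 0 to 2 and 0 to 1 for remaining prefoldin, 0 to 3 and 0 to 1 for assembly, 0 to 5 and 0 to 1 for actin, 1 to 6 and 0 to 2 for WD40-repeat, 0 to 2 and 0 to 2 for other chaperonin and 0 to 6 and 0 to 1 for HSP genes, 0 to 1 falling for tubulin, and 0 to 1, 0 to 1 and 1 to 3 rising for cofactor, tubulin folding and transcription factor genes.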
